A study of Homo sapiens with 8 samples.

Results

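The IFIT and IFITM families were followed as 7 genes, IFIT1, IFIT2, IFIT3, IFIT5, IFITM1, IFITM2 and IFITM3, taken from 40295 gene IDs of a count table by the symbols their Ensembl IDs map to. All 7 passed the filter on low counts and were among the 16519 genes tested. The libraries came from HCT116 cells, a human colorectal cancer line, in a wild-type and a CRISPR-Cas9 knock-in form that carries the E33Q change in MED12, part of the kinase module of Mediator. Each line was sampled without treatment (0 h) and after 24 h with interferon-γ (IFN-γ) at 5 ng/ml, which gave 4 groups of 2 libraries of rRNA-depleted total RNA. A single knock-in line was named, so the E33Q change and differences between cell clones cannot be told apart. Every treated library was also the later one, so IFN-γ and time in culture cannot be told apart. The replicates were described as biological, without saying whether they were separate cultures, and p-values measure only the spread between these libraries.

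Interferons switch on the IFIT and IFITM genes as part of antiviral defence. IFIT proteins are cytosolic repeat proteins that bind viral RNA, either at caps that lack ribose methylation or at triphosphate ends, and block its translation. IFITM proteins sit in the plasma membrane and in endosomes and hinder the fusion of viral and cellular membranes. Type I interferon acts through ISGF3, a transcription factor complex that includes STAT2 and IRF9 and binds the interferon-stimulated response element (ISRE). IFN-γ acts mainly at the gamma-activated sequence (GAS), and through IRF1, itself a GAS target, which can bind ISRE-like sites.

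Total estimated counts ranged from 20901909 to 28045842 per library. ERCC spike-in RNAs took 0.11 to 0.141% of the counts of untreated and 0.228 to 0.271% of those of treated libraries. At least 7 of 8 colorectal epithelial markers were detected in every library, with a summed level of 2340 to 5170 CPM, counts scaled to a common library total. KRT8 alone gave 1440 to 3612 CPM of this sum, and VIL1 did not exceed 0.16 CPM. The 12 plasma cell markers summed to 273 to 394 CPM in both untreated wild-type libraries and in replicate 2 of both knock-in groups, against 1.43 to 2.42 CPM in the other 4. Markers of other leukocytes (11 genes) summed to 2.95 to 5.94 CPM, of endothelial cells (4 genes) to 1.06 to 2.67 CPM and of fibroblasts (5 genes) to 3.26 to 6.78 CPM, with NKG7, MS4A1, CD3D and LUM at 0 throughout. Plasma cell markers summed to 349 and 394 CPM in the untreated wild-type libraries and 1.98 and 1.43 CPM in the treated ones. In wild-type cells they therefore cannot be told apart from the response to IFN-γ. The part of the plasma cell transcripts in the results was not tested. No untreated wild-type library was free of them. Values given below without both knock-in libraries of replicate 2 set untreated lines with and without these transcripts against each other. They cannot test a line difference in untreated cells or the difference between responses.

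On GRCh38, with the GENCODE annotation, the 4 IFIT genes lay on chromosome 10 in the order IFIT2 (ENSG00000119922, 89283694 to 89309276), IFIT3 (ENSG00000119917, 89327894 to 89340971), IFIT1 (ENSG00000185745, 89392546 to 89406486) and IFIT5 (ENSG00000152778, 89414586 to 89421001), all on the plus strand. The IFITM genes lay on chromosome 11. IFITM2 (ENSG00000185201, 307631 to 315272) and IFITM1 (ENSG00000185885, 313506 to 315272) were on the plus strand, and IFITM3 (ENSG00000142089, 319669 to 327537) was on the minus strand. No 31-base word of any IFIT gene's transcripts occurred in another member. Among the IFITM genes, 36.6% of the words of IFITM1, 37.2% of those of IFITM2 and 24% of those of IFITM3 occurred in another member, and annotated exons of IFITM1 and IFITM2 shared 351 bases on the same strand. Reads could therefore have been divided between IFITM genes by the quantification, and their separate levels are uncertain. IFIT2 shared 65 exon bases with LIPA on the opposite strand. The sources used here do not say whether strand was used in counting.

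The promoter windows are shown because they were searched for letters that match the ISRE and the GAS. The RefSeq promoter table (GRCh38.p14, 250 bases before to 50 after a start site) had 6 entries for 5 members, IFIT1, IFIT3 with 2 start sites, IFIT5, IFITM1 and IFITM3. Stretches of 30 or 80 bases around the matches are printed on the gene's strand, with each ISRE match inside the printed stretch in capitals. A match of IFIT3 at its second start, 1 of IFIT5 and 1 of IFITM1 lie outside the stretches. The short form of the ISRE is GAAA, any 2 bases, then GAAA, and reads TTTC, any 2 bases, then TTTC where it lies on the other strand.
IFIT3, first start (chr10:89327814-89327893, plus strand): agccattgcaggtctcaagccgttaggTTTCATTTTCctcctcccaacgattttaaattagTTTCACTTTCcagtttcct
IFIT3, second start (chr10:89332469-89332498, plus strand): ttccatcagTTTCACTTTCctttccccttt
IFIT1 (chr10:89392466-89392545, plus strand): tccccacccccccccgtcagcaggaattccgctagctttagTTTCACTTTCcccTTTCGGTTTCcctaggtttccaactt
IFIT5 (chr10:89414544-89414573, plus strand): tttagTTTCGATTTCttaagTTTCAGTTTC
IFITM1 (chr11:313995-314024, plus strand): agcagGAAATAGAAActtaagagaaataca
IFITM3 (chr11:320884-320913, minus strand): gGAAAAGGAAActgttgaGAAACCGAAAct

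All 6 windows of 300 bases held the short form of the ISRE, which occurred in 3.57% of the 35116 promoters of the table (1255 promoters, both strands searched). They also held its longer form, the short form followed by CT, which occurred in 0.273% of all promoters (96 promoters). IFIT5 had 3 matches of each form, at 47 to 36 and 21 to 10 bases before its start site and across the start site. Only 2 promoters of the table held 3 or more matches of the longer form, and 13 held 3 or more of the short form. The other 5 windows each had 2 short matches, between 156 and 113 bases before the first start of IFIT3, between 118 and 94 before IFIT1, and within 94 bases of the other starts. A GAS match (TTC, any 3 bases, then GAA) occurred in 1 of the 6 windows, 12 to 4 bases before the start of IFITM1, against 7.66% of all promoters (2689 promoters). A match describes letters in the window and is not evidence of binding.

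**Figure D1:**
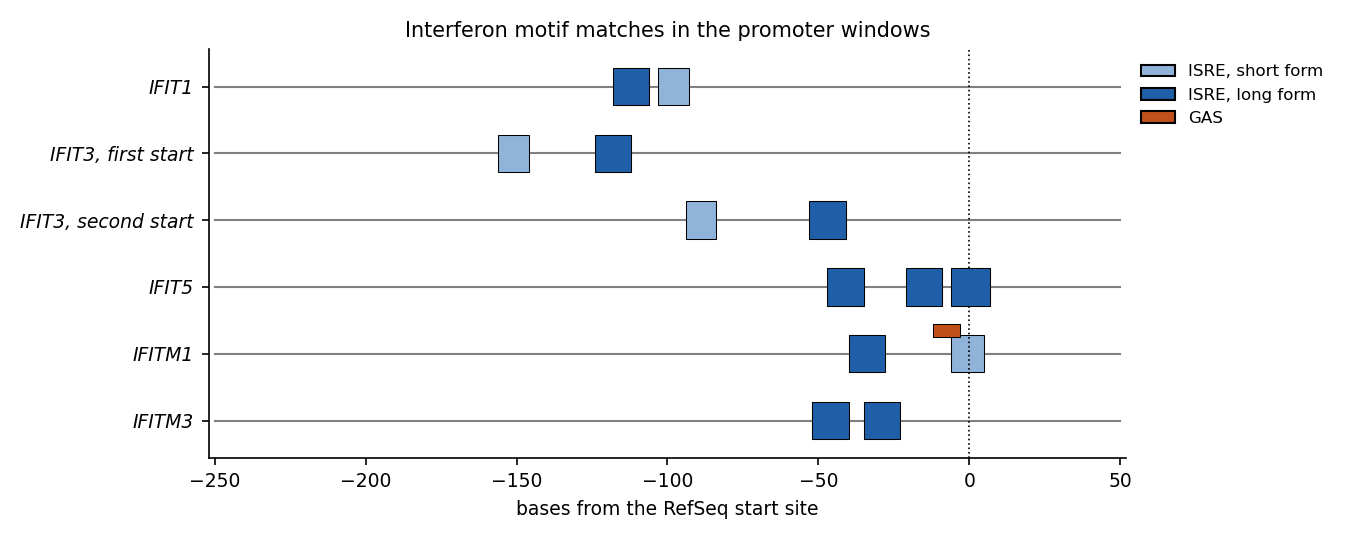
Matches of the ISRE (short form light blue, longer form dark blue) and of the GAS element (orange) in the promoter windows of 5 members, in bases from the RefSeq start site (dotted line). IFIT5 has 3 matches of the longer form, IFITM1 has the GAS match, and in every other window the matches are of the ISRE alone.

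The first comparison asked how each line responded to IFN-γ. IFIT3, which binds and stabilises IFIT1, rose most of the 7 genes in both lines. Its level (CPM after TMM scaling, a linear scale) was 1.195 and 2.004 in the untreated and 90.0 and 90.1 in the treated wild-type libraries, replicate 1 first. In the knock-in line it was 2.62 and 2.22 untreated and 113 and 103 treated. Each treated library was far above every untreated library. Untreated libraries held 26.2 to 54.3 estimated counts of IFIT3, so the size of its rise rests on low counts. The fitted rise was 56.5-fold in wild-type cells (log2 fold change 5.82 ± 0.23, SE; adjusted p = 1.1e-06, edgeR quasi-likelihood test) and 45-fold in the knock-in line (5.49 ± 0.22; adjusted p = 1.26e-06). In such bulk libraries, a change in RNA per cell and a change in the share of cells that express a gene cannot be told apart. IFIT3 took 1.45 to 1.89% of the counts of the 4 IFIT genes in untreated and 43.4 to 45.3% in treated libraries.

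IFIT2, an IFIT3 partner linked to cell death and to the binding of AU-rich RNA, rose by less. It stood at 1.89 and 3.51 CPM in untreated and 9.39 and 10.0 CPM in treated wild-type cells. The knock-in libraries had 3.01 and 3.98 CPM untreated and 15.5 and 14.0 CPM treated. The treated and untreated libraries did not overlap in either line. The rise was 3.61-fold in wild-type cells (log2 fold change 1.85 ± 0.30; adjusted p = 0.00173, edgeR) and 4.2-fold in the knock-in line (2.07 ± 0.30; adjusted p = 0.000485).

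IFIT1, which binds capped RNA without ribose methylation, differed between lines before treatment. Wild-type libraries had 9.15 and 13.0 CPM untreated and 24.6 and 22.7 CPM treated. Knock-in libraries had 25.5 and 23.4 CPM untreated and 27.7 and 30.96 CPM treated. Untreated knock-in cells were thus at the level of treated wild-type cells, and the 4 libraries of those groups overlapped. IFIT1 rose 2.14-fold in wild-type cells (log2 fold change 1.10 ± 0.19; adjusted p = 0.00237, edgeR). With libraries scaled to their ERCC spike-ins that value was 0.33 (adjusted p = 0.265). In the knock-in line the change did not pass the test (0.26 ± 0.19, 95% interval −0.16 to 0.68; adjusted p = 0.275), was −0.27 with ERCC scaling (adjusted p = 0.375), and passed with the dependence on GC content and length taken out of every library (0.66; adjusted p = 0.00699).

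IFIT5, which binds RNA with a triphosphate end and acts as a monomer, had the highest CPM of the IFIT genes without treatment. It stood at 70.8 and 103 CPM in untreated and 83.3 and 80.9 CPM in treated wild-type libraries. The knock-in line had 107 and 93.2 CPM untreated and 93.4 and 90.0 CPM treated. The treated wild-type libraries fell between the untreated ones, and the knock-in groups overlapped narrowly. Its log2 fold change was −0.08 in wild-type (95% interval −0.48 to 0.31; adjusted p = 0.751, edgeR) and −0.13 in knock-in cells (−0.52 to 0.26; adjusted p = 0.577).

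For IFIT5 the scaling set the direction and the call. With ERCC scaling it was called lower, by −0.85 in wild-type (adjusted p = 0.00331) and −0.66 in knock-in cells (adjusted p = 0.0136). With the trend on GC content and length removed it was called higher, by 0.52 (adjusted p = 0.00496) and 0.74 (adjusted p = 0.000635). Its longest coding transcript had a GC content of 37.4%, the lowest of the 7 genes, which otherwise ran from 42.2 to 56.9%. The wild-type value also turned on 1 library: it was −0.41 (adjusted p = 0.0291) without untreated replicate 1 and 0.21 (adjusted p = 0.238) without untreated replicate 2. As a share of the IFIT counts, IFIT5 went from 75.9 to 85.3% in untreated to 37.4 to 40.2% in treated libraries, which reflects unequal change among the 4 genes.

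**Figure D2:**
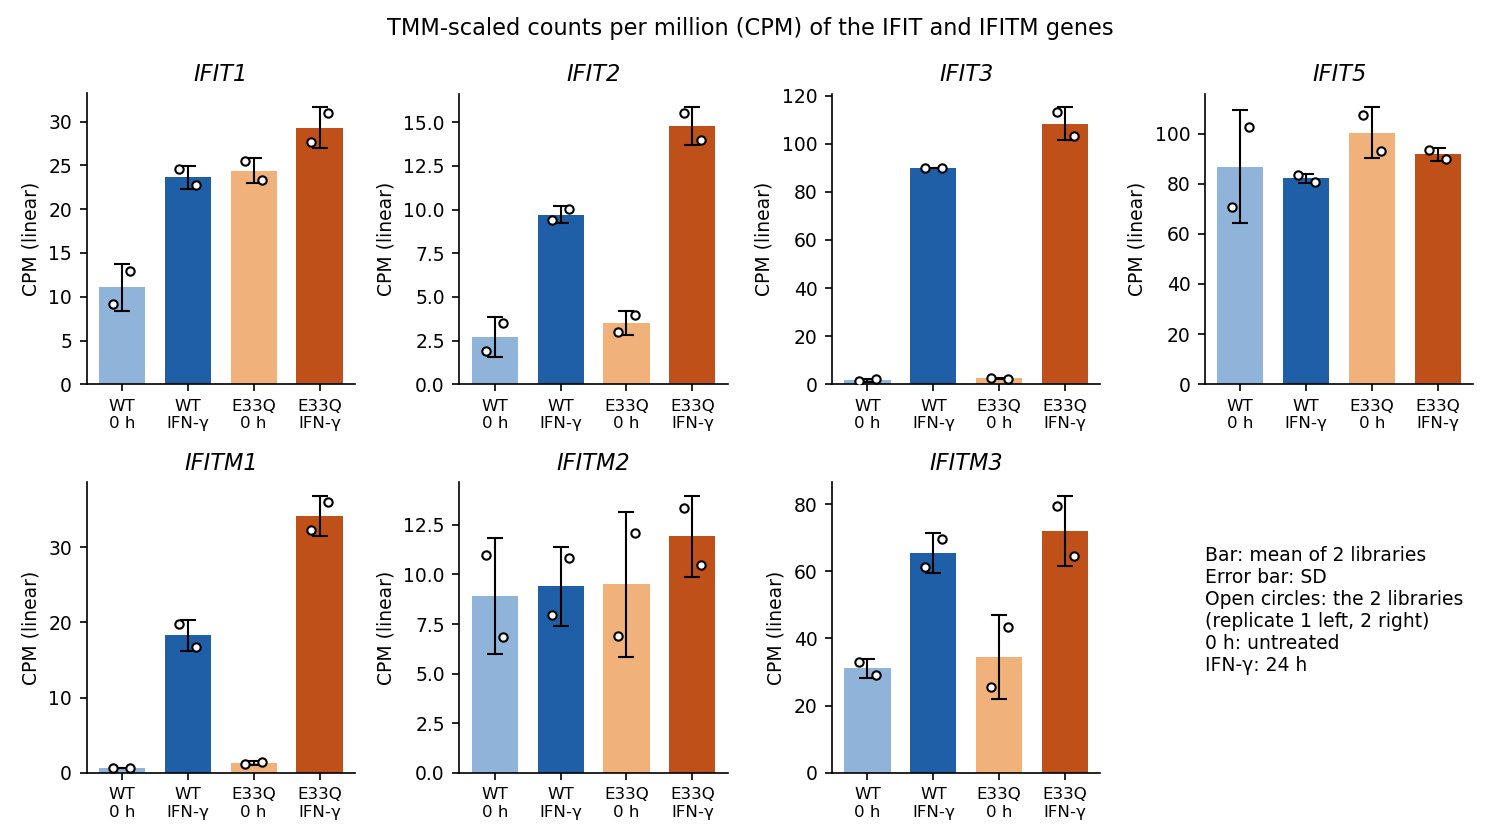
Levels of the 7 genes in CPM after TMM scaling on linear axes that start at 0, with bars for the mean of 2 libraries, error bars for the SD and open circles for single libraries. IFIT3 and IFITM1 go from under 3 CPM to at least 16.8 CPM with IFN-γ, IFIT1 of untreated knock-in cells (25.5 and 23.4 CPM) sits with that of treated wild-type cells, and IFIT5 and IFITM2 overlap between treated and untreated groups in the wild-type line.

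IFITM1, the family member found mainly at the cell surface, rose most of the 3 IFITM genes. Its level was 0.644 and 0.651 CPM in untreated and 19.8 and 16.8 CPM in treated wild-type libraries. Knock-in libraries had 1.11 and 1.44 CPM untreated and 32.3 and 36.1 CPM treated. The 4 groups did not overlap, and the knock-in line was the higher of the lines in both states. IFITM1 rose 28-fold in wild-type cells (log2 fold change 4.81 ± 0.24; adjusted p = 4.66e-06, edgeR) and 26.4-fold in the knock-in line (4.72 ± 0.22; adjusted p = 3e-06). Untreated libraries held only 12.8 to 34.8 estimated counts of IFITM1, so the sizes of these rises rest on low counts. IFITM1 took 1.46 to 3.35% of the counts of the 3 IFITM genes in untreated and 17.3 to 32.4% in treated libraries.

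IFITM3, an endosomal protein known for restricting influenza virus, was the most abundant of the IFITM genes in every library. Wild-type libraries had 33.1 and 29.1 CPM untreated and 61.2 and 69.6 CPM treated. Knock-in libraries had 25.7 and 43.3 CPM untreated and 79.4 and 64.7 CPM treated. All treated libraries were above all untreated ones, although the untreated knock-in replicates were far apart (34.5 ± 12.5 CPM, SD, n = 2). The rise was 2.10-fold in wild-type (log2 fold change 1.07 ± 0.23; adjusted p = 0.00631, edgeR) and 2.08-fold in knock-in cells (1.06 ± 0.23; adjusted p = 0.00393). With ERCC scaling neither passed, at 0.25 (adjusted p = 0.524) and 0.53 (adjusted p = 0.178). Without both knock-in libraries of replicate 2 the knock-in value was 1.63 (adjusted p = 0.0091).

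IFITM2, also an endosomal protein, showed no detectable response. It stood at 10.99 and 6.86 CPM in untreated and 7.97 and 10.8 CPM in treated wild-type libraries. The knock-in line had 6.91 and 12.1 CPM untreated and 13.4 and 10.5 CPM treated. Treated and untreated libraries overlapped in both lines. Its log2 fold change was 0.07 in wild-type (95% interval −0.66 to 0.80; adjusted p = 0.884, edgeR) and 0.32 in knock-in cells (−0.40 to 1.05; adjusted p = 0.444), intervals that leave room for changes of over 1.5-fold. With ERCC scaling the signs turned, to −0.79 (adjusted p = 0.141) and −0.20 (adjusted p = 0.727).

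In all, 5 of the 7 genes were called higher in wild-type cells, where 17.1% of all tested genes were called higher and 37.9% were called in either direction. In the knock-in line 4 of 7 were called higher, against 26.4% of all tested genes higher and 52.1% in either direction. None was called lower, against 20.8% and 25.8% of all tested genes. The median log2 fold change of the 7 genes was 1.10 in wild-type and 1.06 in knock-in cells, against 0.08 and 0.12 over all tested genes. Ranked from the largest rise, IFIT3 was 89th of 16519 genes in wild-type and 63rd in knock-in cells, and IFITM1 was 127th and 85th. IFIT2 ranked 551 and 409, IFITM3 1493 and 2771, and IFIT1 1406 and 7475. The rises of IFIT2, IFIT3 and IFITM1 kept their calls in both lines under every alternative run.

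**Figure D3:**
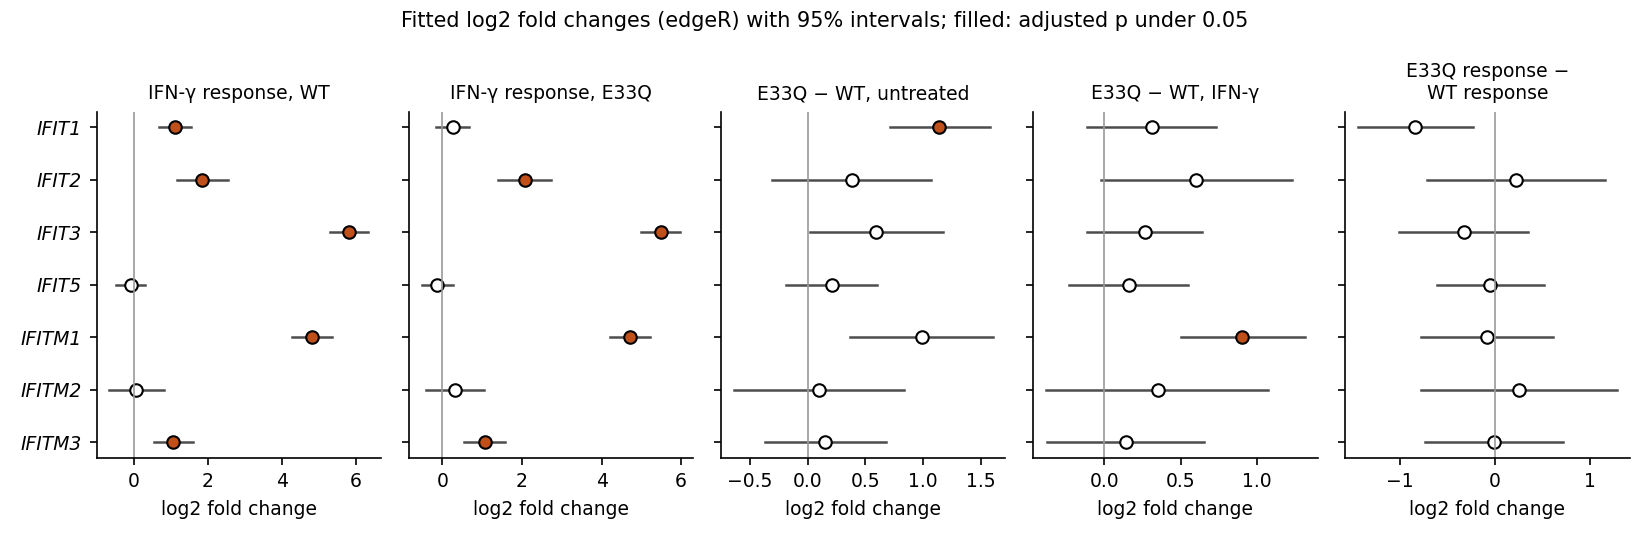
Log2 fold changes of the 7 genes in 5 comparisons (points) with 95% intervals (lines), filled where the adjusted p was under 0.05. IFIT1 is called in the wild-type response and in untreated cells between lines, IFITM1 is called in both responses and between treated lines, and no gene is called for the difference between responses.

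The second comparison set the lines against each other within each state. It shares its libraries with the responses above, so the comparisons are not independent. Without treatment 1 of 7 genes was called, against 8.43% of all tested genes in either direction and 4.26% higher and 4.17% lower. That gene was IFIT1, 2.21-fold higher in the knock-in line (log2 difference 1.14 ± 0.19; adjusted p = 0.0094, edgeR). Both untreated knock-in libraries (25.5 and 23.4 CPM) were above both wild-type ones (9.15 and 13.0 CPM). Both of these wild-type libraries and knock-in replicate 2 held plasma cell transcripts, whose part in the difference was not tested. The IFIT1 difference lost its call with ERCC scaling (0.84; adjusted p = 0.0613), without untreated knock-in replicate 1 (1.08; adjusted p = 0.0511) and without both knock-in libraries of replicate 2 (1.21; adjusted p = 0.0768).

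IFITM1 was 1.98-fold higher in untreated knock-in cells and just missed the threshold (log2 difference 0.99 ± 0.27; adjusted p = 0.0564, edgeR). It passed without a filter on low counts (0.99; adjusted p = 0.0474), with a minimum of 50 counts (0.98; adjusted p = 0.049) and with the GC trend removed (0.95; adjusted p = 0.0322). IFIT3 differed by 0.59 ± 0.25 (adjusted p = 0.171), IFIT2 by 0.38 (adjusted p = 0.464) and IFIT5 by 0.21 (adjusted p = 0.489). Without untreated wild-type replicate 2, the higher of the wild-type pair for each, they were called at 1.00 for IFIT3 (adjusted p = 0.0187), 0.90 for IFIT2 (adjusted p = 0.0441) and 0.50 for IFIT5 (adjusted p = 0.0204). IFITM2 and IFITM3 differed by 0.10 (adjusted p = 0.887) and 0.15 (adjusted p = 0.721), with ERCC scaling by −0.27 and −0.19, and without both knock-in libraries of replicate 2 by −0.37 and −0.27. Without untreated wild-type replicate 1 the difference was 0.00 for IFIT2 and −0.04 for IFIT5.

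With IFN-γ 1 of 7 genes was called, against 2.91% of all tested genes in either direction and 1.63% higher and 1.28% lower. IFITM1 was 1.87-fold higher in treated knock-in cells (log2 difference 0.90 ± 0.18; adjusted p = 0.0299, edgeR), and both knock-in libraries (32.3 and 36.1 CPM) were above both wild-type ones (19.8 and 16.8 CPM). The call was lost with ERCC scaling (0.83; adjusted p = 0.24) and without any 1 of the 4 treated libraries. Those values were 1.03 (adjusted p = 0.118) and 0.79 (adjusted p = 0.267) without wild-type replicates 1 and 2, and 0.98 (adjusted p = 0.177) and 0.82 (adjusted p = 0.318) without knock-in replicates 1 and 2. IFIT2 differed by 0.60 ± 0.28 (adjusted p = 0.34), IFIT1 by 0.31 (adjusted p = 0.483) and IFIT3 by 0.27 (adjusted p = 0.504). IFIT2 (0.62; adjusted p = 0.0321) and IFIT3 (0.28; adjusted p = 0.0342) passed when only the treated libraries were fitted. IFITM2 differed by 0.35 (adjusted p = 0.683), IFIT5 by 0.16 (adjusted p = 0.744) and IFITM3 by 0.14 (adjusted p = 0.846; −0.02 without treated knock-in replicate 1). Over the 7 genes the median difference was 0.38 untreated and 0.31 with IFN-γ, against −0.02 and −0.01 over all tested genes.

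The last comparison asked whether the responses differed between lines. No member and 0% of the 16519 tested genes were called by edgeR. At an unadjusted p under 0.05, edgeR gave 1119 genes, among them 1 member, IFIT1. DESeq2 called 4 genes and limma-voom 0, with no member among them. Without a filter on low counts, edgeR called 267 genes of 24104, again with no member. For IFIT1 the knock-in response minus the wild-type response was −0.84 ± 0.27 on the log2 scale (95% interval −1.44 to −0.23; adjusted p = 0.688, edgeR). The interval for IFIT3 ran from −1.01 to 0.35, for IFITM1 from −0.78 to 0.61 and for IFITM3 from −0.74 to 0.71. Differences of 1.5-fold in either direction lie within the last 2 of these intervals. The ratio of IFIT1 to IFIT5 counts, which does not depend on a common factor for each library, was 0.129 and 0.126 in untreated and 0.295 and 0.281 in treated wild-type libraries. In knock-in libraries it was 0.237 and 0.251 untreated and 0.296 and 0.344 treated. The ratio is not free of the trend on GC content and length, whose removal changed the IFIT5 responses.

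**Figure D4:**
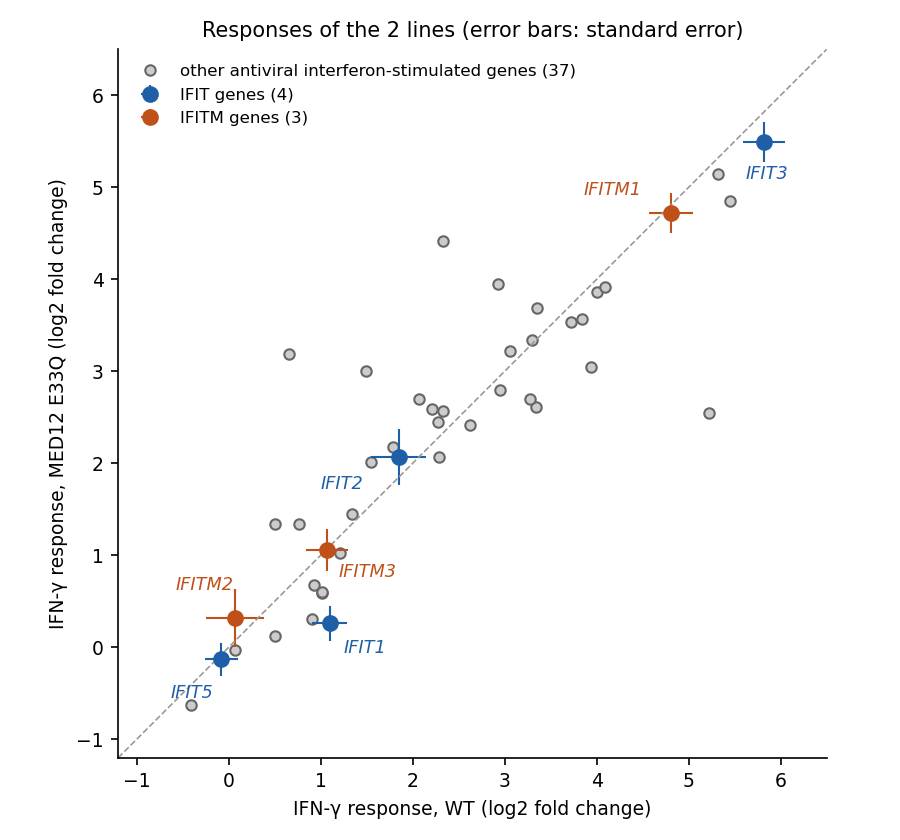
Log2 fold change with IFN-γ in the wild-type line (x axis) against the knock-in line (y axis), with standard errors, for the IFIT genes (blue), the IFITM genes (orange) and 37 other antiviral interferon-stimulated genes (grey), with a dashed line of equal response. IFIT3 (5.82 and 5.49) and IFITM1 (4.81 and 4.72) lie among the largest responses, and IFIT1 (1.10 and 0.26) lies below the line.

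Levels were compared between genes per kilobase of the longest coding transcript (CPM per kb). In untreated wild-type cells IFITM3 (38.5) and IFIT5 (21.6) led, followed by IFITM2 (10.0) and IFIT1 (2.40). IFITM1 (0.757), IFIT2 (0.728) and IFIT3 (0.641) came last and overlapped across their libraries. In treated wild-type cells IFITM3 (80.9) stayed first and IFIT3 (36.1) was next, above IFITM1 (21.4) and IFIT5 (20.4), which overlapped. IFITM2 (10.5), IFIT1 (5.13) and IFIT2 (2.62) were lowest.

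Untreated knock-in cells kept the upper order of untreated wild-type cells, with IFITM3 at 42.7 CPM per kb, IFIT5 at 25.0, IFITM2 at 10.7 and IFIT1 at 5.29. IFITM1 (1.49) came next, above IFIT3 (0.968) and IFIT2 (0.944), which overlapped. In treated knock-in cells IFITM3 (89.2) led, IFIT3 (43.4) and IFITM1 (40.0) overlapped, and IFIT5 (22.8), IFITM2 (13.4), IFIT1 (6.35) and IFIT2 (3.99) followed. With the median in place of the longest transcript length, the order changed between IFITM1 and IFIT2 in untreated wild-type cells and between IFIT3 and IFIT2 in untreated knock-in cells, pairs that overlapped across their libraries.

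A common factor for each library moved all its genes together. Removal of the GC and length trend moved genes unequally. In the wild-type response it took EIF3E from −1.55 to −0.49 and IRF1 from 4.86 to 4.5. Scaling to the ERCC spike-ins moved the median log2 fold change of all genes by −0.80 in the wild-type and −0.53 in the knock-in response, by −0.33 and −0.06 in the line differences and by 0.27 in the difference between responses. Other scalings moved it by at most 0.1. With ERCC scaling, 233 genes were called higher and 6745 lower in wild-type cells, against 2821 and 3435 with TMM scaling, and 616 and 5476 in knock-in cells, against 4356 and 4257. Under ERCC scaling the rises of IFIT3 were 5.05 and 4.96, of IFITM1 4.03 and 4.2, and of IFIT2 1.09 and 1.54 in wild-type and knock-in cells, and all 6 passed.

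Across the 8 libraries the genes with the most similar pattern were found by Pearson correlation of log2 CPM, given as a description because all points share the 4 groups. IFIT3 was closest to GBP1 (r = 0.9998), a guanylate-binding protein, PARP9 (0.9997) and APOL6 (0.9984). IFITM1 was closest to EPSTI1 (0.9964), STAT2 (0.996) and the adaptor MYD88 (0.9946). IFIT2 was closest to IFI44 (0.9915), PLEKHA7 (0.9879) and NEDD4L (0.9874). IFIT1 was closest to TRIM38 (0.9916), DDX58, the viral RNA sensor RIG-I (0.9815), and SFMBT1 (0.9672).

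The other genes had looser matches. IFITM3 was closest to GNB5 (0.9822), COG1 (0.9798) and DCLRE1B (0.977). For IFITM2 the closest were MED27, another Mediator subunit (0.9392), SMARCAL1 (0.9146) and SPATS2 (0.9022). For IFIT5 they were FKBP14 (0.909), CYLD (0.9067) and NAAA (0.9056). Among the members, IFIT3 and IFITM1 were the most alike (0.989), ahead of IFIT2 with IFITM1 (0.972) and with IFIT3 (0.965). IFIT5 correlated with no other member above 0.41.

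Of 22 genes of interferon signalling, 13 were called higher and 4 lower in wild-type cells, and 13 higher and 7 lower in knock-in cells. The shares of all tested genes were 17.1% higher and 20.8% lower, and 26.4% higher and 25.8% lower. Median log2 fold changes of the 22 genes were 0.81 and 1.22. STAT2 rose by 1.95 and 2.06 in wild-type and knock-in cells, and IRF9, which binds DNA in ISGF3, rose by 2.31 and 2.04. IRF1 rose by 4.86 and 4.92, from at most 13.6 CPM in untreated to at least 337 CPM in treated wild-type libraries. The negative regulator SOCS1 reached 3.47 in knock-in cells and 1.43 in wild-type cells, where it missed the threshold (adjusted p = 0.0545, edgeR). Untreated levels of SOCS1 were 0.965 and 1.25 CPM in wild-type and 0.446 and 0.164 CPM in knock-in libraries, too low for firm folds. Its difference between responses was not called (2.04 ± 0.77; adjusted p = 0.688, edgeR). IFNGR1, the ligand-binding IFN-γ receptor chain, fell by 1.14 and 1.2, and the phosphatase gene PTPN2 fell by 1.25 and 1.29. With the GC trend removed these were −0.49 and −0.33 for IFNGR1, the second no longer called (adjusted p = 0.0789), and −0.73 and −0.56 for PTPN2. With ERCC scaling the counts were 7 higher and 8 lower in wild-type and 8 and 7 in knock-in cells, and with the GC trend removed 11 and 2, and 12 and 3. Between lines, IRF9 was the 1 gene of the list called, at 0.82 ± 0.20 higher in untreated knock-in cells (adjusted p = 0.0364, edgeR). Over all tested genes, 8.43% were called between untreated and 2.91% between treated lines.

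Among the interferon genes themselves, 9 were in the table. IFNB1, IFNA1, IFNA2, IFNK, IFNL1, IFNL2 and IFNL3 were at 0 in all 8 libraries, and IFNG did not exceed 0.041 CPM. IFNE was tested and not called in any comparison.

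Of 37 other antiviral interferon-stimulated genes, 31 were called higher and none lower in wild-type cells, and 33 higher and 1 lower in knock-in cells, with median log2 fold changes of 2.28 and 2.59. The shares of all tested genes were 17.1% higher and 20.8% lower, and 26.4% higher and 25.8% lower. OAS1, which senses double-stranded RNA, rose by 5.32 and 5.15, and EPSTI1 rose by 5.45 and 4.86. Untreated libraries had at most 0.506 CPM of OAS1 and 0.903 CPM of EPSTI1, so the sizes of these rises rest on low counts. ISG15, a ubiquitin-like modifier, rose by 1.21 and 1.02, and with ERCC scaling had 0.41 in wild-type (adjusted p = 0.0602) and 0.49 in knock-in cells (adjusted p = 0.031). MX1, a GTPase that blocks viral nucleocapsids, changed by 0.50 (adjusted p = 0.241) in wild-type and rose by 1.34 in knock-in cells, where ERCC scaling gave 0.81 (adjusted p = 0.158). RSAD2 was at 0 and 0.15 CPM in untreated and 1.68 and 0.816 CPM in treated wild-type libraries, too few counts for a firm fold. With ERCC scaling 24 of the 37 were higher and 2 lower in wild-type cells, and 26 and 2 in knock-in cells.

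Between the lines, 5 of these 37 genes were called higher and none lower without treatment, and 2 higher and 1 lower with IFN-γ. The shares of all tested genes were 4.26% higher and 4.17% lower, and 1.63% higher and 1.28% lower. ISG20 was higher in both states (1.21 ± 0.27 and 1.60 ± 0.25), and SAMD9 was the gene lower with IFN-γ (−0.80 ± 0.16). Line differences of this list are given with TMM scaling alone. DDX58 was the gene on this list that came closest to IFIT1 in pattern. It was at 19.4 and 33.3 CPM in untreated wild-type and 57.8 and 48.7 CPM in untreated knock-in libraries, and with IFN-γ at 51.0 and 47.8 against 66.5 and 65.0 CPM. It was higher in the untreated knock-in line by 1.02 ± 0.23 (adjusted p = 0.0283, edgeR), rose by 0.91 in wild-type cells (adjusted p = 0.0122) and changed by 0.31 in knock-in cells (adjusted p = 0.288). The calls of the DDX58 responses depended on the scaling. With ERCC scaling the wild-type value was 0.16 (adjusted p = 0.608, edgeR) and the knock-in value −0.23 (adjusted p = 0.463). With the GC trend removed both passed, at 1.3 in wild-type (adjusted p = 0.000732) and 0.88 in knock-in cells (adjusted p = 0.00283). IFI6, an interferon-induced membrane protein, was higher by 1.47 ± 0.20 in untreated knock-in cells (adjusted p = 0.0035) and IFI35 by 1.14 ± 0.15 (adjusted p = 0.00306). BST2, the virion tether tetherin, was higher by 1.17 ± 0.25 with IFN-γ (adjusted p = 0.0403).

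Of 10 partners of the IFIT proteins, 3 were called higher and 4 lower in wild-type cells, where 17.1% of all tested genes were called higher and 20.8% lower. In knock-in cells 5 were higher and 4 lower, against 26.4% and 25.8% of all tested genes. The initiation factor subunit EIF3E, a contact of IFIT proteins on the translation machinery, fell by 1.55 and 1.77, and the cap-binding protein EIF4E fell by 1.16 and 1.27. The cap methyltransferases differed in sign. CMTR2 fell by 1.02 and 1.36, whereas CMTR1, which adds the methyl group that shields host RNA from IFIT1, rose by 0.95 and 1.32. PCIF1 rose by 0.79 and 1.09, and had 0.39 and 0.34 without a call with the GC trend removed. RNMT was not called with TMM scaling (0.18 and −0.31). With the GC trend removed, EIF3E (−0.49 and −0.37), EIF4E (−1.03 and −0.94), CMTR2 (−0.54 and −0.62) and CMTR1 (0.54 and 0.73) stayed called at smaller or similar size, and with ERCC scaling CMTR1 was 0.11 in wild-type cells (adjusted p = 0.737).

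Of 5 partners of the IFITM proteins, 4 were called lower in each line and none higher. The shares of all tested genes were 20.8% lower and 17.1% higher in wild-type, and 25.8% lower and 26.4% higher in knock-in cells. ZMPSTE24, a membrane protease that binds IFITM proteins, fell by 1.15 and 1.44. The palmitoyl transferase ZDHHC20 fell by 0.71 and 1.07, and the ubiquitin ligase NEDD4, which marks IFITM3 for degradation, fell by 0.54 and 0.76. The fourth was VAPA, which binds IFITM3 at membranes. With the GC trend removed, 1 was called lower in wild-type and 2 in knock-in cells. ZMPSTE24 was called in both (−0.47 and −0.50), ZDHHC20 in the knock-in line (−0.30 and −0.42), and NEDD4 in neither (−0.21 and −0.20).

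Genes beside the clusters were counted in the same way. Of 6 tested neighbours of the IFIT genes, 4 were called lower and none higher in each line, led by KIF20B, a mitotic kinesin (−1.2 and −1.83). Over all tested genes 20.8% were called lower in wild-type and 25.8% in knock-in cells. LIPA, the lysosomal lipase whose exons overlap IFIT2, fell by 0.53 and 1.01, and with the GC trend removed had −0.09 (adjusted p = 0.658) and −0.42 (adjusted p = 0.0319). With the GC trend removed 2 of 6 were called lower in each line. Of 12 tested neighbours of the IFITM genes, 3 were higher and 1 lower in wild-type cells, and 7 higher and 1 lower in knock-in cells, against 17.1% higher and 20.8% lower, and 26.4% higher and 25.8% lower, of all tested genes. With the GC trend removed, or with ERCC scaling, at most 1 of these 12 was called higher in a line. PSMD13, a proteasome subunit, fell by 0.57 and 0.66 and also fell under both of these scalings.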

How the data were processed

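RNA-seq libraries of 8 samples were analysed. Per the submitters' processing notes, the authors used Trimmomatic, kallisto and GRCh38; their versions, the annotation and the strand setting are not given in those sources. The authors deposited estimated counts per Ensembl gene ID (58.1% of nonzero values not whole, tolerance 1e-06), with 63 ERCC spike-ins, which were left out of tests. GENCODE release 29, with a second list of gene names for IDs it lacks, named 35583 IDs, and 4712 stayed unnamed. Estimated counts were rounded, filtered with filterByExpr (minimum count 10), scaled by TMM (factors 0.86 to 1.13) and fitted by group over the 8 libraries (edgeR 4.0.16, R 4.3.3). Contrasts used the quasi-likelihood test, with p adjusted by Benjamini-Hochberg over 16519 genes and a threshold of 0.05. The standard error was the log2 fold change over the square root of F. The fit was tested on simulated data with changes planted in the wild-type response. It recovered 60 of 100 changes of 2-fold and 90 of 100 of 4-fold, and called 12 unchanged genes among 16233. Many true changes of 2-fold or less can therefore go uncalled.

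The members and lists were chosen with earlier results of these data known. Named genes were the 7 members, for each the 3 genes of at least 5 CPM with the highest correlation, up to 4 called genes with the largest change per list and response, and STAT2, IRF9, IRF1, MX1, ISG15, OAS1 and RSAD2. DDX58, IFI6, IFI35, BST2, ISG20, SAMD9, IFNGR1, PTPN2, the interferon genes, PCIF1, RNMT, NEDD4, VAPA, LIPA and PSMD13 were also described, some of them after their values were seen. Some genes the rule takes are not reported here. Alternatives were DESeq2 1.42.0 and its size factors, upper-quartile and ERCC scaling, limma-voom (3.58.1), no filter, at least 50 counts in 2 libraries, a replicate block, removal of each library's loess trend on GC content and length (span 0.3; known for 92.4% of tested genes), only the groups compared, each library left out, and both knock-in libraries of replicate 2 left out.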

Additional observations from a re-analysis of the deposited data

How the results depend on the processing

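Of 693 alternative values for single genes, 622 kept their direction and side of the threshold, 12 lost and 14 gained a call, and 45 changed sign, 4 of them past the threshold (IFIT5 with the GC trend removed). The causes were not tested. With ERCC scaling the difference between responses became 0.18 for IFIT5, 0.17 for IFITM1 and 0.28 for IFITM3, and the untreated line difference −0.09 for IFIT5, −0.27 for IFITM2 and −0.19 for IFITM3. The knock-in response became −0.27 for IFIT1 and −0.20 for IFITM2, and the wild-type response −0.79 for IFITM2. With the GC trend removed, alone or with the replicate block, IFIT5 had a difference between responses of 0.22, responses of 0.52 (wild-type) and 0.74 (knock-in) and an untreated line difference of −0.02. limma-voom moved the difference between responses of IFITM3 from −0.01 to 0.01. Without both knock-in libraries of replicate 2 that difference was 0.04 for IFITM1, 0.88 for IFITM2 and 0.56 for IFITM3, the untreated line difference was −0.37 for IFITM2 and −0.27 for IFITM3, and the knock-in response of IFITM2 was 0.95.

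With each library left out in turn, the difference between responses ranged from −0.29 to 0.62 for IFIT2, −0.74 to 0.02 for IFIT3, −0.34 to 0.21 for IFIT5, −0.24 to 0.12 for IFITM1, −0.11 to 0.72 for IFITM2 and −0.34 to 0.42 for IFITM3. The untreated line difference ranged from 0.00 to 0.90 for IFIT2, −0.04 to 0.50 for IFIT5, −0.37 to 0.47 for IFITM2 and −0.27 to 0.48 for IFITM3, and the treated one from −0.02 to 0.28 for IFITM3. The wild-type response ranged from −0.41 to 0.21 for IFIT5 and −0.23 to 0.36 for IFITM2, and the knock-in response of IFITM2 from −0.02 to 0.79. A group left with 1 library was assumed to vary like the others.

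The count of members called between untreated lines, 1, was 0 with ERCC scaling and without both knock-in libraries of replicate 2. It was 2 with no filter, with at least 50 counts and with the GC trend removed, alone or with the block, and 0 to 4 with 1 library left out. Between treated lines, also 1, it was 0 with ERCC scaling and without those libraries, 3 with only the groups compared and 0 to 1 with 1 library left out. Deviations of same-numbered libraries correlated by 0.014 between the wild-type groups and 0.27 between the knock-in groups, with −0.002 to 0.074 for the others. Not every pair was above 0.1 and no label gives the number a meaning, so it was not taken to pair the samples. The replicate block changed no call of a member and moved the difference between responses of IFITM3 to 0.01. Low counts limit IFITM1, IFIT3 and IFIT2 in untreated cells.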

Other observations

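The table held 8 further IDs named as IFIT or IFITM genes or pseudogenes. IFIT1B, IFIT6P, IFITM8P and IFITM9P were at 0 in all 8 libraries, which makes 4 of the 8. IFIT1P1, a pseudogene, had 2 to 12 estimated counts per library, IFITM4P had 0 to 5.5, and IFITM5 and IFITM10 had 0 to 3 each. IFITM4P was at 0 to 1 estimated counts in the 4 untreated and 1 to 5.5 in the 4 treated libraries. None of the 8 passed the filter on low counts.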
